A study of Oryctolagus cuniculus with 6 samples.

Results

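The genes described here encode the subunits of the respiratory chain and of ATP synthase that are made from nuclear genes. They were chosen by symbol alone, as the genes whose names begin with NDUF, SDH, UQCR, COX or ATP5 and that belong to the 5 complexes, and 60 of the 28788 genes in the tables met this rule. Of these, 35 belong to complex I, 4 to complex II, 1 to complex III, 3 to complex IV and 17 to complex V, and all 60 passed the filter on low counts. The samples were 3 retinas labelled normal and 3 retinas labelled proliferative vitreoretinopathy (PVR), all from adult rabbits. In the PVR group the sclera was punctured, 0.3 mL of vitreous was withdrawn and platelet-rich plasma, a blood fraction with concentrated platelets, was injected into the vitreous cavity. The strain, the time from injection to collection, and whether each sample came from a separate animal are not given in the sources used here, so the p-values measure only the spread between these samples, which may be technical. Each retina was sequenced as whole tissue, so fewer cells of a type and less RNA per cell cannot be told apart.

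The respiratory chain sits in the inner mitochondrial membrane. Complex I takes electrons from NADH and complex II takes them from succinate, complex III passes them to cytochrome c, and complex IV hands them to oxygen. Complexes I, III and IV pump protons out of the matrix, and complex V, the ATP synthase, uses the returning protons to make ATP. Mitochondrial DNA encodes a small part of the subunits and nuclear genes encode the rest. The retina has a high demand for ATP, and the inner segments of its photoreceptors are packed with mitochondria.

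Between 31904593 and 43035080 reads were counted per sample, and the 60 genes took between 0.380% and 0.495% of them. Levels of single genes across samples are given as CPM, the count of a gene relative to the library's total count after scaling by trimmed mean of M values (TMM) factors. Levels of different genes are compared as FPKM, which is also divided by gene length. The median gene of the 60 had a mean of 59.97 FPKM over the samples, against 4.03 FPKM for the median of all 18697 genes tested. ATP5F1A, which encodes the alpha subunit of the catalytic head of ATP synthase, had the highest level with 334 FPKM, and NDUFA11, an accessory complex I subunit, had the lowest with 7.35 FPKM. One library stood apart, as normal 2 had 2.89% of its counts in crystallin genes of the lens against at most 0.0291% in each of the others.

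No subunit gene passed the test, and most had small negative log2 fold changes in PVR retinas. With edgeR's quasi-likelihood test and an adjusted p under 0.05, 0 of the 60 genes were higher and 0 were lower, where 1.09% of all genes tested were higher and 0.615% were lower. At an unadjusted p under 0.05, 12 of the 60 genes (20%) were lower and 0 were higher, and 9.94% of all genes were lower at that level. DESeq2 called 4 genes lower at an adjusted p under 0.05, which was 6.67% of the 60 genes, and 3.96% of the genes to which it gave an adjusted p. The median log2 fold change of the 60 genes was -0.18 with a range from -0.60 to 0.48, against a median of -0.01 over all genes tested. With one library left out the median of the 60 genes ranged from -0.27 without normal 3 to -0.10 without normal 1 or without PVR 2. Of the 60 genes, 53 had a negative log2 fold change (88.3%), compared with 51.1% of all genes. In 12 genes every PVR sample lay below every normal sample (20%, against 14.6% of all genes), in 1 gene every PVR sample lay above (against 13.4% of all genes), and in the other 47 the groups overlapped. The median standard error of a log2 fold change was 0.13 among these genes.

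**Figure D1:**
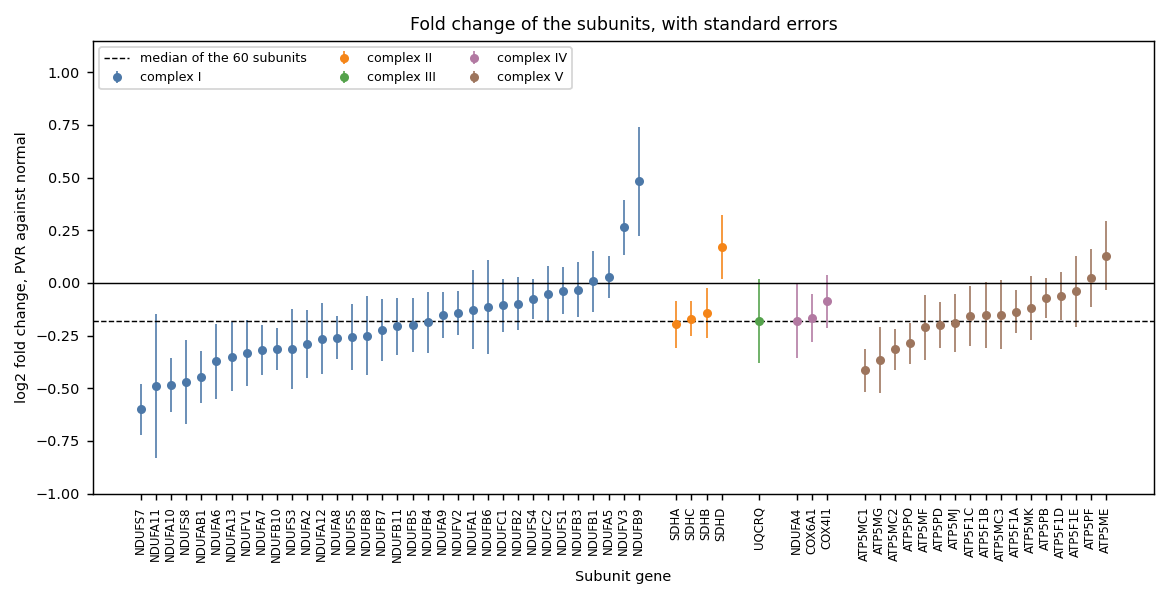
Log2 fold change of the subunit genes in PVR against normal retina from edgeR, without 1 gene that is not reported here, grouped by complex, with bars of 1 standard error and a dashed line at the median of -0.18. Most points lie a little to the negative side of 0, the lowest is NDUFS7 at -0.60 and the highest is NDUFB9 at 0.48.

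The summed level of the 60 genes was 5067, 4536 and 4096 CPM in the normal samples and 4070, 3663 and 4424 CPM in the PVR samples, or 4566 ± 486 against 4052 ± 381 CPM (mean ± SD, n = 3 each). The ratio of the means was 0.89, and PVR 3 lay above normal 3, so the groups overlapped. The genes also moved together from sample to sample. Normal 1 held the highest level of 44 of the 60 genes and PVR 2 held the lowest level of 41. Relative to the mean of the normal samples, the median log2 level of the 60 genes was 0.15, 0.01 and -0.17 in normal 1 to normal 3, against -0.16, -0.31 and -0.03 in PVR 1 to PVR 3. Normal 3 therefore stood with PVR 1, and PVR 3 stood close to normal 2.

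The 5 complexes differed little in this respect. Summed over its genes, complex I had 1978, 1801 and 1621 CPM in the normal samples and 1586, 1417 and 1713 CPM in the PVR samples, a ratio of 0.87. Complex V had 2046, 1799 and 1642 CPM against 1621, 1501 and 1772 CPM, a ratio of 0.89. In the remaining complexes the ratios were 0.90 for complex II, 0.88 for complex III and 0.92 for complex IV. The median log2 fold changes were -0.22 in complex I, -0.16 in complex II, -0.18 in complex III, -0.17 in complex IV and -0.15 in complex V. The groups overlapped in the sum of every complex.

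**Figure D2:**
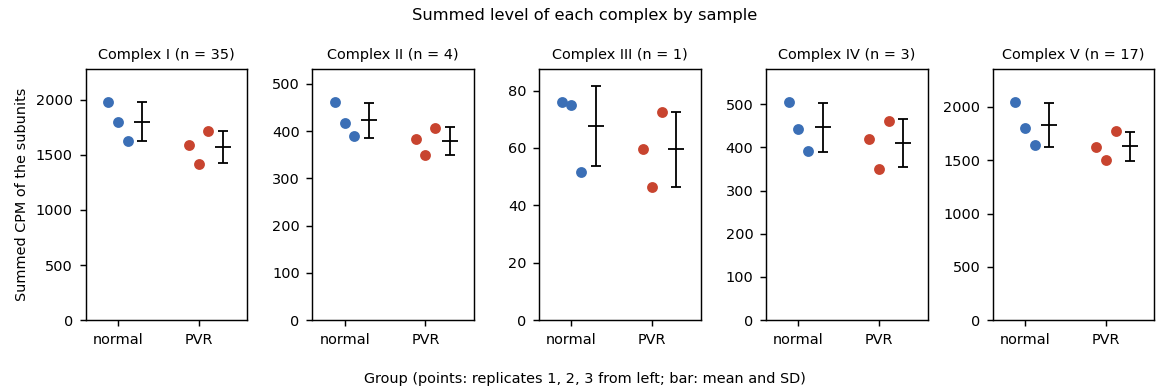
Summed level in TMM-scaled CPM of the subunit genes of each complex in every sample, with one point per sample and the mean and SD of each group (n = 3). The panel titles give the number of genes summed, and the normal and PVR points overlap in every complex, with normal 1 highest and PVR 2 lowest in each.

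Complex I has a core that carries the flavin and the iron-sulfur clusters, and a larger set of accessory subunits around it. All 7 nuclear core genes had negative log2 fold changes, with a median of -0.31. NDUFS7, which holds the last iron-sulfur cluster before ubiquinone, had the largest difference of all 60 genes. Its levels were 40.6, 39.4 and 34.2 CPM in the normal samples and 24.1, 23.2 and 28.1 CPM in the PVR samples. The groups did not overlap, and the log2 fold change was -0.60 with a standard error of 0.12 and an adjusted p of 0.061 in edgeR. DESeq2 called it lower with an adjusted p of 0.00087. NDUFS7 was the only one of the 60 genes that edgeR called when a library was left out, with adjusted p-values of 0.0434 without normal 3 and 0.0409 without PVR 3. In these fits 1.3% and 0.698% of all genes tested were called lower.

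Smaller differences were measured in other core genes. NDUFV1, which binds NADH and the flavin, had 122, 115 and 83.9 CPM against 83.4, 74.8 and 96.7 CPM, a log2 fold change of -0.33 in overlapping groups. NDUFS1, the largest iron-sulfur subunit, had 208, 179 and 165 CPM in the normal samples and 182, 162 and 193 CPM in the PVR samples. Its log2 fold change of -0.04 turned positive under several other settings, up to 0.06, so that no direction can be given for this gene.

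Of the 28 accessory genes of complex I, 24 had negative log2 fold changes, and the median was -0.20. In 6 of them (21.4%, against 14.6% of all genes) the PVR samples were all below the normal samples, namely NDUFA10, NDUFAB1, NDUFA13, NDUFA7, NDUFB10 and NDUFA8. NDUFA10 had 103, 92.0 and 81.3 CPM in the normal samples against 68.5, 55.7 and 73.5 CPM in the PVR samples. Its log2 fold change was -0.48 with a standard error of 0.13, and the adjusted p was 0.105 in edgeR and 0.0165 in DESeq2. NDUFAB1, the mitochondrial acyl carrier protein that also serves fatty acid synthesis and iron-sulfur cluster assembly, had 56.4, 49.97 and 42.2 CPM against 36.0, 34.0 and 38.9 CPM. Its log2 fold change was -0.45, with an adjusted p of 0.111 in edgeR and 0.0286 in DESeq2. NDUFA5 had the highest level in complex I with 105 FPKM, and its log2 fold change was 0.03.

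NDUFV3, an accessory subunit of the NADH-binding arm, went the other way. It had 23.6, 22.5 and 18.2 CPM in the normal samples and 27.0, 25.6 and 24.7 CPM in the PVR samples. Every PVR sample lay above every normal sample, yet the log2 fold change of 0.26 had an adjusted p of 0.293 in edgeR.

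Complex II, the succinate dehydrogenase, is shared by the respiratory chain and the tricarboxylic acid cycle. SDHA, its flavoprotein, had 289, 260 and 237 CPM in the normal samples and 230, 206 and 250 CPM in the PVR samples, with a log2 fold change of -0.20. SDHB, the iron-sulfur subunit, had a log2 fold change of -0.14. SDHC and SDHD anchor the enzyme in the membrane, and their values had opposite signs, at -0.17 and 0.17. For SDHC the groups did not overlap, with 76.5, 66.8 and 77.7 CPM in the PVR samples below 87.4, 79.7 and 81.6 CPM in the normal samples. None of the 4 genes passed the test, with adjusted p-values in edgeR between 0.289 and 0.536.

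By symbol, only UQCRQ was found for complex III and only COX4I1, COX6A1 and NDUFA4 for complex IV. UQCRQ, a small subunit of the membrane part, had 76.0, 75.1 and 51.5 CPM in the normal samples and 59.7, 46.5 and 72.5 CPM in the PVR samples. COX4I1 is the common form of a regulatory subunit of cytochrome c oxidase, and its levels were 268, 246 and 213 CPM against 235, 197 and 253 CPM. The log2 fold changes were -0.18 for UQCRQ, -0.09 for COX4I1, -0.17 for COX6A1 and -0.18 for NDUFA4, all in overlapping groups.

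Most other subunits of these 2 complexes are listed in the tables by a gene number in place of a symbol. A further 24 rows of subunits were matched by this number through RefSeq's annotation of the rabbit assembly mOryCun1.1, and 23 of them passed the filter on low counts. Among these are the second rows of NDUFB9 and ATP5F1B, genes that the 60 already hold. This list was made after the tables had been seen. No row of the 23 passed the edgeR test in either direction, all 23 had negative log2 fold changes, and their median was -0.23. In complex III, the PVR samples were all below the normal samples for the heme-carrying CYC1, with a log2 fold change of -0.34 and an adjusted p of 0.13 in edgeR. The same held for the core proteins UQCRC1 and UQCRC2, at -0.28 and -0.23, and not for the Rieske iron-sulfur protein UQCRFS1, at -0.14. In complex IV, COX5A and COX6B1 had log2 fold changes of -0.19 and -0.30 in overlapping groups.

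Cytochrome c oxidase has subunits that come in a common and a tissue-specific form. COX4I2, the form of subunit 4 that is known from lung and from oxygen-sensing cells, had 18.9, 17.2 and 12.4 CPM in the normal samples and 10.4, 8.10 and 9.26 CPM in the PVR samples. The groups did not overlap, and the log2 fold change was -0.81 with a standard error of 0.20. The adjusted p was 0.087 in edgeR and 0.00422 in DESeq2. In edgeR it was 0.0355 without normal 3, where 1.3% of all genes tested were called lower. With any other library left out it lay between 0.111 (without PVR 3) and 0.272 (without PVR 1) in edgeR, and it was 0.139 with a replicate block. Relative to COX4I1 on the FPKM scale, COX4I2 stood at 11.4%, 11.3% and 9.42% in normal retina and at 7.11%, 6.63% and 5.91% in PVR. That was 10.7% ± 1.09 against 6.55% ± 0.606 (SD, n = 3 each), without overlap.

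The heart and muscle forms COX6A2 and COX7A1 showed the same order. COX6A2 was rare, with 35, 29 and 26 counts in normal retina against 15, 9 and 23 counts in the PVR samples, and its log2 fold change of -0.87 had an adjusted p of 0.302 in edgeR. It stood at 0.907% ± 0.0842 of COX6A1 in the normal samples and at 0.546% ± 0.117 in the PVR samples (SD, n = 3 each). COX7A1 itself overlapped between the groups, as PVR 3 with 18.0 CPM lay above normal 3 with 13.8 CPM, and its log2 fold change of -0.61 had an adjusted p of 0.29 in edgeR. That value was -0.38 without normal 1 and -0.41 without PVR 2. Its FPKM stood at 18.4% ± 1.46 of COX7A2 in the normal samples and at 13.6% ± 1.82 in the PVR samples (SD, n = 3 each). For each of the 3 ratios the groups did not overlap, and the two-sided exact permutation test gave p = 0.1, which is the smallest value that 3 samples against 3 allow and stayed 0.1 after adjustment over the 3 ratios. COX7B2, the rarer form of subunit 7b, had 0 counts in each normal sample, 0, 4 and 4 counts in the PVR samples, and was not tested. Its common partner COX7B and the common form COX8A had log2 fold changes of -0.23 and -0.21 in overlapping groups. Of 9 marker genes of pericytes and smooth muscle, 1 (RGS5) was called lower and 0 were called higher by edgeR, against 0.615% and 1.09% of all genes. DESeq2 also called 1 higher (ACTA2, at 1.65), and 3 of the 9 values were positive. Their summed level of 28.3, 41.4 and 65.2 CPM in the normal samples overlapped with 38.6, 25.3 and 47.5 CPM in the PVR samples. Their part in the ratios was not tested. Of 7 striated muscle markers, only 2 passed the filter on low counts.

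**Figure D3:**
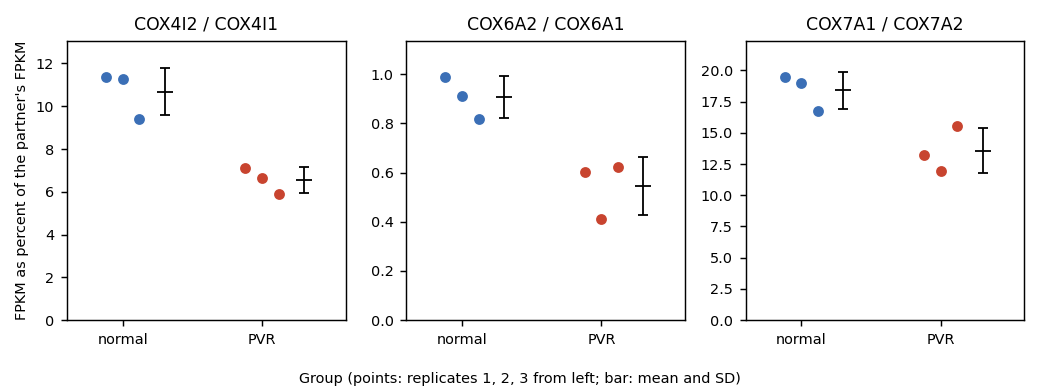
FPKM of the tissue-specific subunit as a percent of its common partner in each sample for COX4I2, COX6A2 and COX7A1, with one point per sample and the mean and SD of each group (n = 3). In all 3 panels the PVR points lie below the normal points, from 10.7% to 6.55% in the mean for COX4I2.

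ATP synthase consists of a catalytic head, a rotating c ring in the membrane, a peripheral stalk and further membrane subunits. The 3 genes of the c ring encode the same mature protein behind different import signals, and ATP5MC1 was the lowest of them in PVR relative to normal. ATP5MC1 had 59.2, 54.6 and 49.4 CPM in the normal samples and 41.8, 37.0 and 43.6 CPM in the PVR samples. Its log2 fold change was -0.41 with a standard error of 0.10, and the adjusted p was 0.092 in edgeR and 0.0185 in DESeq2. ATP5MC2 had 42.8, 46.7 and 40.8 CPM against 35.7, 36.8 and 32.3 CPM, again without overlap, and a log2 fold change of -0.31 with an adjusted p of 0.136 in edgeR. ATP5MC3, the most abundant of the 3 with 111 FPKM, overlapped between the groups and had a log2 fold change of -0.15, which was -0.0051 without PVR 2, -0.02 without normal 1 and -0.31 without PVR 3. Whether these 3 values differ from each other was not tested.

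None of the other ATP synthase genes was called by edgeR or DESeq2. In the 5 genes of the catalytic head the median log2 fold change was -0.14, and the groups overlapped for each of them. ATP5F1A had 734, 640 and 633 CPM in the normal samples and 604, 565 and 656 CPM in the PVR samples, with a log2 fold change of -0.14. The 4 genes of the peripheral stalk had values between -0.29 for ATP5PO, the stalk's link to the head, and 0.02 for ATP5PF. For ATP5PO the groups did not overlap, with 130, 128 and 109 CPM in the normal samples against 103, 92.3 and 106 CPM in the PVR samples. Of the 5 further membrane subunits, 4 had negative values, from -0.37 for ATP5MG with an adjusted p of 0.235 in edgeR, and the groups overlapped for each. The highest value of complex V was 0.13 for ATP5ME, one of these, with an adjusted p of 0.671 in edgeR.

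**Figure D4:**
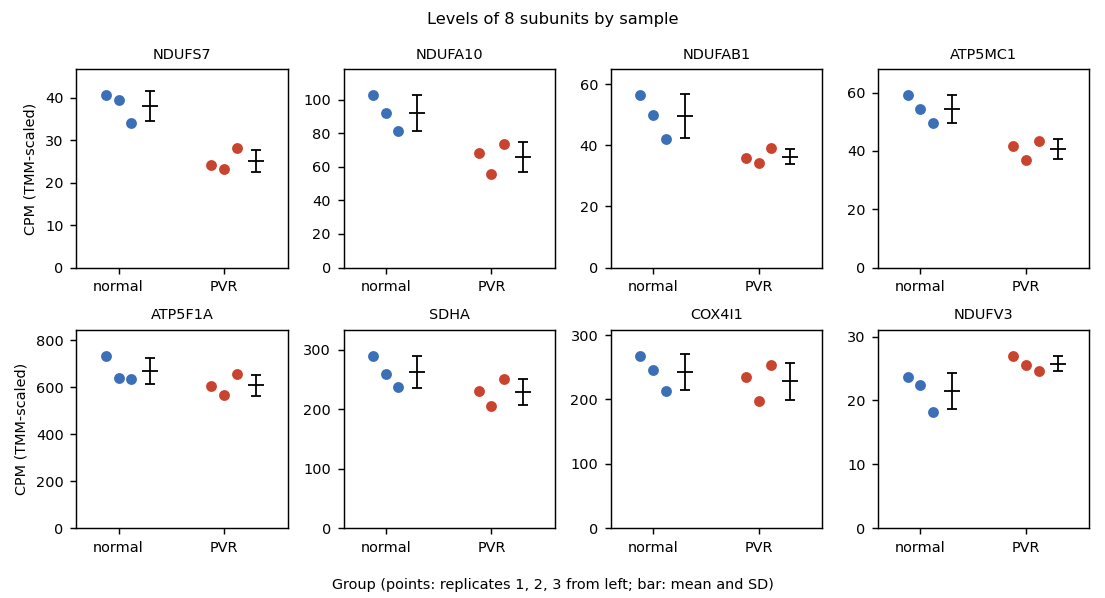
TMM-scaled CPM of 8 subunit genes in every sample, with one point per sample and the mean and SD of each group (n = 3). PVR points lie below all normal points for NDUFS7, NDUFA10, NDUFAB1 and ATP5MC1, above them for NDUFV3, and among them for ATP5F1A, SDHA and COX4I1.

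NDUFB9 and ATP5F1B need a separate account, because each has a row under its symbol and a row under a gene number of nearly the same length. For NDUFB9, an accessory complex I subunit, the symbol row held 948, 912 and 739 counts in the normal samples against 1065, 1383 and 855 in PVR, and its log2 fold change of 0.48 was the highest of the 60 genes. The numbered row had 871, 831 and 901 counts in normal retina but 354, 8 and 1008 counts in the PVR samples. The numbered row thus held 47.9%, 47.7% and 54.9% of the NDUFB9 counts in the normal samples. In the PVR samples it held 24.9% (95% Clopper-Pearson interval 22.7% to 27.3%), 0.575% (0.249% to 1.13%) and 54.1%, where the intervals cover counting error only. Added together, the rows gave 47.8, 44.8 and 41.0 CPM in the normal samples and 43.4, 41.4 and 42.9 CPM in the PVR samples, or 44.5 ± 3.38 against 42.6 ± 1.04 CPM (SD, n = 3 each). The log2 fold change of the sum was -0.07 with an adjusted p of 0.694 in edgeR, so the higher level of the symbol row is uncertain. What sets the rows apart from each other is not given in the tables.

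For ATP5F1B, the catalytic beta subunit of ATP synthase, the numbered row held 64.5%, 61.0% and 55.3% of the counts in normal retina, against 57.4%, 45.5% and 75.0% in PVR. The sum of both rows was 138, 116 and 92.2 CPM against 77.3, 91.4 and 155 CPM. PVR 3 had the highest sum and PVR 1 the lowest, and the log2 fold change of the sum was -0.09 with a standard error of 0.27. The symbol row alone stood at 23.8 FPKM, so the level of ATP5F1B is uncertain as well.

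**Figure D5:**
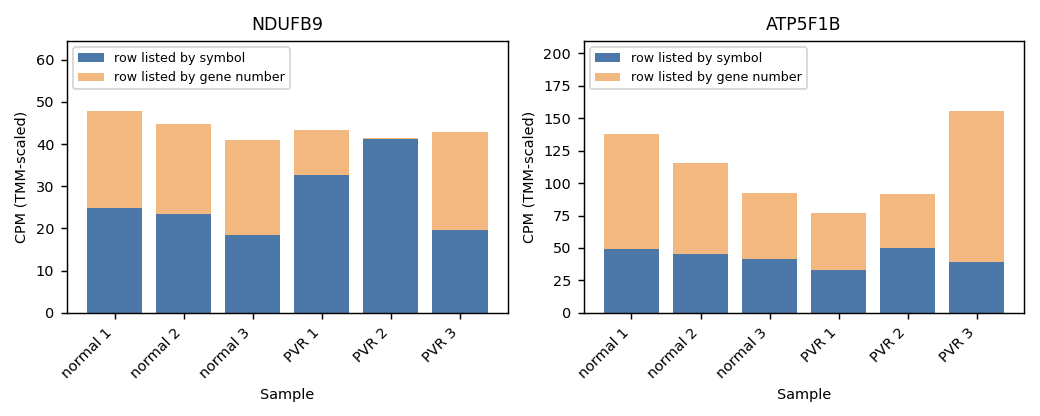
TMM-scaled CPM of the symbol row and of the numbered row of NDUFB9 and ATP5F1B in every sample, stacked so that the bar height is their sum. The numbered row of NDUFB9 almost vanishes in PVR 2 (0.575% of the NDUFB9 counts) while the sums stay between 41.0 and 47.8 CPM.

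The 13 subunits encoded in mitochondrial DNA were tested beside their nuclear partners. None passed the test in edgeR, 9 had positive log2 fold changes, the median was 0.02, and the groups overlapped for each. The lowest was ND3 of complex I at -0.27 and the highest was ATP8 of ATP synthase at 0.43. The ratio of the summed nuclear to the summed mitochondrial CPM was 0.752, 0.756 and 0.529 in normal retina, against 0.588, 0.468 and 0.707 in PVR. The low values were those of normal 3, PVR 1 and PVR 2, so the ratio did not separate the groups. The libraries were made from polyadenylated RNA, and the mitochondrial values depend on how much of these transcripts such a selection retains.

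Other genes of mitochondrial respiration were counted from lists. Of 48 assembly factors of the 5 complexes, 0 passed the edgeR test in either direction, 35 had negative log2 fold changes, and the median was -0.09. The lowest was COX14 at -0.50, which acts in the assembly of complex IV, and the highest was NUBPL at 0.43, which delivers iron-sulfur clusters to complex I. CYCS, the cytochrome c that carries electrons between complexes III and IV, had 96.0, 79.1 and 65.7 CPM in the normal samples and 109, 102 and 125 CPM in the PVR samples. The groups did not overlap, with a log2 fold change of 0.48 and an adjusted p of 0.132 in edgeR and 0.0271 in DESeq2. HIGD1A, a small protein that associates with complex IV, had 215, 192 and 137 CPM against 115, 123 and 101 CPM. Its log2 fold change was -0.68, with an adjusted p of 0.087 in edgeR and 0.00205 in DESeq2.

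Of 14 genes of mitochondrial transcription and biogenesis, 0 passed the edgeR test, and the median was -0.16. They ranged from POLG2 at -0.47 to POLG at 0.36, the accessory and the catalytic subunit of the mitochondrial DNA polymerase, and neither overlapped between the groups. Of 13 genes of the tricarboxylic acid cycle, 0 passed the test, 10 had negative values and the median was -0.21. In 8 of the 13 the PVR samples were all below the normal samples (61.5%, against 14.6% of all genes). The values ran from -0.52 for citrate synthase (CS) to 0.07 for SUCLG2. Of 12 genes listed for the outer membrane, the mitochondrial carriers and protein import, 0 passed the edgeR test and the median was -0.20. DESeq2 called 3 of them lower (25%, against 3.96% of the genes to which it gave an adjusted p) and 1 higher. In this list the values ran from -0.76 for the adenine nucleotide carrier SLC25A5, which exports ATP from the matrix, to 2.67, in overlapping groups, for the import channel gene TIMM23.

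Lists outside respiration give a scale for these medians. The median log2 fold change of the 17 glycolysis genes was -0.38, all 17 values were negative and in 14 genes the PVR samples were all below the normal samples, where 14.6% of all genes did so. Of the 17 genes 0 passed the edgeR test and DESeq2 called 12 lower (70.6%, against 3.96% of the genes to which it gave an adjusted p). The 78 cytosolic ribosomal protein genes tested had a median of -0.13, and 58 of the values were negative (74.4%, against 51.1% of all genes). Their summed CPM had a ratio of 0.91. In 12 of the 78 the PVR samples were all below the normal samples (15.4%, against 14.6% of all genes), and in 4 they were all above (against 13.4%). Of the 78 genes 1 (RPS28) passed, at -0.70 with an adjusted p of 0.0342 in edgeR, where 0.615% of all genes were called lower. No difference between these lists and the subunit genes was tested.

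Markers of retinal cell types were measured in the same libraries. The 10 rod markers had summed levels of 51185, 43527 and 50599 CPM in the normal samples and 37472, 30828 and 42333 CPM in the PVR samples. These sums did not overlap and had a ratio of 0.76, although no rod marker passed the edgeR test. DESeq2 called 3 of the 10 lower (30%, against 3.96% of the genes to which it gave an adjusted p). The most abundant marker had 10541 FPKM against a median of 685 FPKM, so the sum weights them unequally. In 6 of the 10 the PVR samples were all below the normal samples (60%, against 14.6% of all genes). The other 4 overlapped, and 1 of the 10 had a positive value, at 0.23. The 8 cone markers had 2340, 1649 and 2347 CPM against 1572, 1325 and 1825 CPM, which overlapped. Among the PVR samples, the rod sums, the cone sums and the sums of the 60 subunit genes had the same order, with PVR 2 lowest and PVR 3 highest. This order was not particular to photoreceptor markers. It was also that of the summed bipolar, amacrine and horizontal, ganglion, and Müller glia and astrocyte markers. The summed glycolysis and cytosolic ribosomal protein genes had it as well, while the macrophage and microglia markers were highest in PVR 2. Among the normal samples, normal 1 was highest in the rod sums and in the subunit sums, and normal 3 in the cone sums. Normal 2 was lowest in the rod and cone sums and normal 3 in the subunit sums. The 9 macrophage and microglia markers had 59.2, 58.5 and 25.0 CPM in the normal samples and 86.2, 102 and 66.7 CPM in the PVR samples, without overlap. All 9 had positive values, 0 passed the edgeR test and DESeq2 called 4 higher, where it called 1095 of all 18697 genes higher. Of the 7 markers of Müller glia and astrocytes, 2 were called lower by edgeR, GLUL at -1.11 and RLBP1 at -0.89, and 3 had positive values, the highest being GFAP at 1.39 without overlap between the groups and with an adjusted p of 0.143. Of the 6 pigment epithelium markers 2 were called lower (TTR and LRAT), and 2 had positive values, up to 0.53. In 4 of the 6 the PVR samples were all below the normal samples (66.7%, against 14.6% of all genes). In 1 they were all above (against 13.4% of all genes). The sums of the 6 were 302, 427 and 183 CPM against 120, 118 and 132 CPM, without overlap. Of the 8 endothelial markers 2 were called lower (CDH5 and VWF), although the sum, set mostly by KDR and FLT1, was 653, 658 and 603 CPM against 724, 701 and 704 CPM. Oligodendrocyte markers, with 3 of 7 genes called lower, ran from 246 to 1188 CPM in the normal samples and from 134 to 153 CPM in the PVR samples. In all 7 the PVR samples were all below the normal samples (100%, against 14.6% of all genes). DESeq2 called 6 of the 7 lower (85.7%, against 3.96% of the genes to which it gave an adjusted p). For each of these counts of markers called lower by edgeR, the share over all genes tested was 0.615%. Lens markers summed to 32725 CPM in normal 2 and to at most 300.2 CPM elsewhere, and without normal 2 the median log2 fold change of the 60 genes was -0.17. The part of the cell types in the subunit values was not tested.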

How the data were processed

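Polyadenylated RNA of 3 normal and 3 PVR rabbit retinas was sequenced by the authors, and the samples were grouped by their labels. For each gene, the authors deposited a raw count without normalization, made with HISAT2 against OryCun2.0 and with htseq-count. The strand setting and the annotation release are not given in the sources used here. The authors also deposited FPKM values, which are these counts divided by gene length and total count. The gene numbers in the tables were matched to symbols through mOryCun1.1, which is not the stated build and was used for names only.

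In R 4.3.3, edgeR 4.0.16 was used with its default filter (18697 of 28788 genes), TMM factors and a quasi-likelihood test of the condition, with Benjamini-Hochberg adjustment over the genes tested. A call is an adjusted p under 0.05. The standard error is the log2 fold change divided by the square root of F. DESeq2 1.42.0, limma 3.58.1 and the other settings served as alternatives, and the model code was tested on simulated data. The members and lists were chosen with earlier results of these data known. Genes named are the highest and lowest of each complex or list, the highest in FPKM, core subunits, tissue isoforms and those past a test. The subunits whose groups did not overlap, those called by DESeq2, the genes with 2 rows, ATP5MG, CYCS, HIGD1A and the marker genes not past the edgeR test were named after their values were seen. One gene of the 60 is counted in the summaries but not reported singly here.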

Additional observations from a re-analysis of the deposited data

How the results depend on the processing

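The counts, medians and named subunits were recomputed under 18 alternatives, of which the removal of a trend along gene length gave medians only and the sum of the 2 rows of NDUFB9 and of ATP5F1B was chosen after seeing the data. The isoform ratios and the other lists were not recomputed. No gene of the 60 was called higher under any of them, and the median stayed negative, from -0.27 without normal 3 to -0.10 without normal 1, without PVR 2 or on log2(FPKM + 1). It was -0.26 without PVR 3, -0.11 with total counts only, where the median of all genes was 0.06, and -0.15 with that trend removed. The median of all genes was 0.04 on log2(FPKM + 1), against 0.003 without normal 1 and -0.01 without PVR 2. The number of genes lower was 4 with DESeq2 and ranged from 0 to 1 with a library left out, being 1 (NDUFS7) without normal 3 and without PVR 3. With a library left out, the median of complex III, which is UQCRQ alone, ranged from -0.35 to -0.0315, that of complex IV from -0.27 to -0.005 (without normal 1), that of complex II from -0.22 to -0.07 (without PVR 2) and that of complex V from -0.25 to -0.06 (without normal 1). Without normal 1, NDUFA4 was -0.0001 and COX7B -0.0087. Without PVR 3 and without normal 3 the complex III value was -0.35 and -0.34. NDUFS1 turned to 0.0323 with total counts only and to 0.0354 on log2(FPKM + 1) and 0.0359 on log2(FPKM + 0.1), and ranged from -0.10 to 0.0634 with a library left out. In the same fits COX7A2 ranged from -0.34 to 0.0072, COX4I1 from -0.17 to 0.0093, NDUFA5 from -0.0364 to 0.10 and ATP5ME from -0.0019 to 0.22. NDUFB9 was -0.0656 with its rows summed. The adjusted p of NDUFS7 lay between 0.00087 and 0.272 over the alternatives. Whether the replicate numbers pair the samples is not known. Correlations of same-numbered samples, on deviations from the group means, were -0.0129, 0.0734 and 0.0417, and the others ran from -0.0828 to 0.0427. Normal 2 and normal 3 correlated best with the PVR sample of their own number, and normal 1 with PVR 3. With 3 samples per group such values cannot decide the question. With a replicate block 0 of the 60 genes were called and the median was -0.18. Calls over all genes went from 203 higher and 115 lower to 62 and 30. The calls over all genes were 1095 and 709 with DESeq2, 16 and 6 without PVR 1 and 516 and 134 without PVR 3. The number of samples limits the precision, with a median standard error of 0.13 over the 60 genes.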
